A study of Mus musculus with 30 samples.

Results

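The genes described here are 8 receptors that guide the migration of T cells, namely the chemokine receptors Cxcr3, Cxcr4, Cxcr5, Cxcr6, Ccr4, Ccr8 and Ccr9 and the oxysterol receptor Gpr183. They were chosen by symbol, matched through the Ensembl identifiers of the count matrix, and are 8 of its 55573 genes. The 30 RNA-seq libraries were made from cultures of naive CD8+ T cells, isolated with magnetic beads from spleen and lymph nodes of 8-week-old C57BL/6 mice. All cultures grew without serum for 3 days over plate-bound anti-CD3 and anti-CD28 (each at 5 µg/ml), antibodies that engage the T cell receptor and its costimulator. The 6 groups, each of 5 libraries, were Furin KO and WT cells with IL12 (10 ng/ml), Furin KO and WT cells with TGFB1 (0.5 ng/ml), and Furin KO and WT cells without added cytokine. The study set KO against WT in each condition, and TGFB1 or IL12 against no cytokine within KO and within WT. The labels do not state which part of Furin is deleted, in which cells, or under which promoter. The number in a title (63, 68, 70, 73 and 74 in KO, 62, 67, 71, 72 and 75 in WT) recurs once in each condition, and 1 number of each genotype (KO 63 and WT 62) is labelled male and the others female. KO and WT stand for the libraries labelled so, and values per library are given in ascending order of these numbers.

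Chemokine receptors are G-protein-coupled receptors that make a lymphocyte move toward higher concentrations of their ligands, and the set of receptors a T cell carries sets which tissues and which compartments of a lymph node it can enter. Cxcr3 and Cxcr6 are known from effector and tissue-resident CD8+ T cells, Ccr9 from homing to the small intestine, Ccr4 and Ccr8 from T cells of skin and other barrier tissues, and Cxcr5 and Gpr183 from positioning at and around B cell follicles. TGFB1 restrains effector functions of CD8+ T cells and takes part in the formation of tissue-resident cells, whereas IL12 drives effector differentiation. Furin is a proprotein convertase that cleaves precursors of secreted and membrane proteins, the TGFB1 precursor among them.

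Library totals were 7306151 to 15502443 counts, and 11718 genes passed the filter on low counts. All 8 receptors passed it, but they did so unequally. CPM here is the read count scaled to the library total and TMM factor, but the filter, at 1.02 CPM, used the library total alone. Ccr8 reached the filter level in 9 libraries, all of them with TGFB1, and Ccr9 in 5 libraries, 4 of them with TGFB1. Ccr8 thus entered the test only, and Ccr9 mainly, through the condition in which it was high. The T cell and CD8 markers were abundant in every library, with at least 398 CPM of Cd8a and 230 CPM of Cd3e. Among the B cell markers Cd79b had 3222 counts over all libraries and was read in each of them. Ebf1 had 37, Cd79a had 30, and Ms4a1, Pax5, Blnk and Cd22 had at most 8. Furin was read at 66 to 90.2 CPM in KO and 73.9 to 93.2 CPM in WT with TGFB1, at 120 to 463 CPM in KO and 161 to 533 CPM in WT with IL12, and at 31.5 to 33.9 CPM in KO and 28.8 to 38.5 CPM in WT without cytokine. The log2 fold change of Furin, KO over WT, was -0.05 with TGFB1 (adjusted p = 0.901), -0.81 with IL12 (adjusted p = 0.0799) and -0.08 without cytokine (adjusted p = 0.914), none of them called. As the deleted part is not stated, it is not known whether these counts lie within it, and they do not check the labels. WT library 62 with TGFB1 stood apart from the other 4 of its group: its root mean square distance to their mean over the tested genes was 0.628 on the log2 scale, against 0.287 to 0.477 for the corresponding distance of the other 29 libraries. Results that rest on it are given with and without it.

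Levels of different receptors were compared per kilobase of exon. Ccr4 and Cxcr4 had the highest mean over the 6 groups, at 13.1 and 12.8 CPM per kb. Cxcr6 followed at 9.48 CPM per kb, Gpr183 at 4.35, Cxcr3 at 3.51, Ccr8 at 1.14, Cxcr5 at 0.615 and Ccr9 at 0.072. The order within a group changed with the cytokine and the genotype, because the receptors responded unequally. In the bulk cultures, fewer cells carrying a receptor and less of its RNA per cell cannot be told apart.

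**Figure D1:**
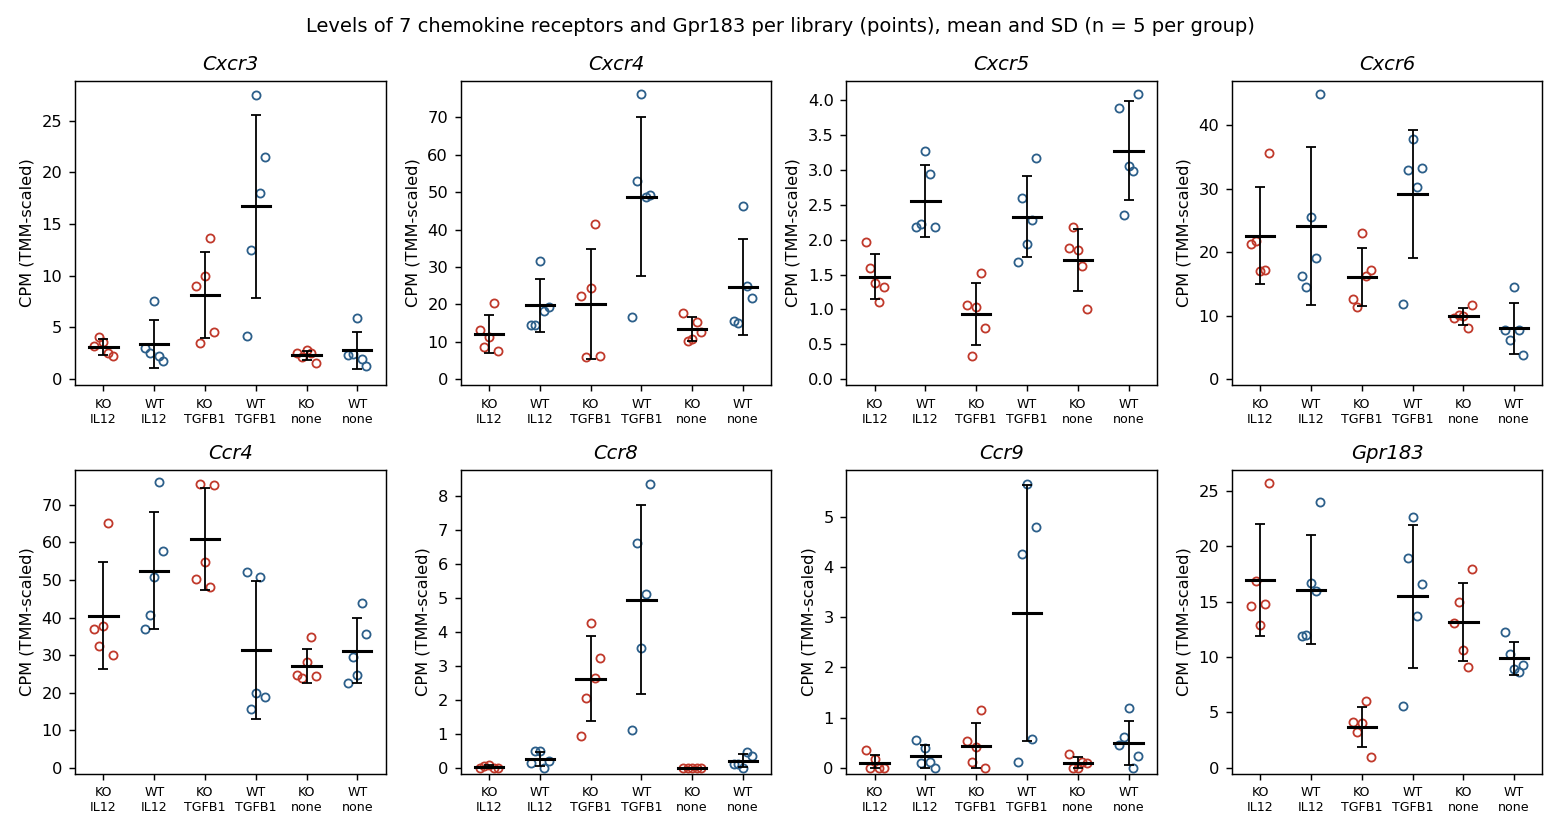
CPM with TMM scaling of each receptor in every library (circles, red KO and blue WT), with the group mean (thick line) and SD (n = 5); each panel has its own linear axis. Ccr8 and Cxcr3 were highest with TGFB1 in both genotypes, whereas Gpr183 with TGFB1 was at 1.01 to 6.06 CPM in KO and 5.6 to 22.7 CPM in WT.

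Gpr183, a receptor for oxysterols that places lymphocytes in the outer zones of lymphoid organs, was the receptor whose answer to TGFB1 differed between the genotypes. With TGFB1 the 5 KO libraries held 4.12, 3.24, 4.05, 6.06 and 1.01 CPM, and the 5 WT libraries 5.6, 19, 22.7, 13.7 and 16.6 CPM. Without cytokine the KO libraries held 13.1, 15, 10.6, 9.07 and 18 CPM, and the WT libraries 12.3, 10.3, 8.95, 8.61 and 9.31 CPM. All 5 KO libraries with TGFB1 thus lay below all 5 KO libraries without cytokine, and 4 of the 5 WT libraries with TGFB1 lay above every WT library without cytokine, the exception being WT 62. TGFB1 lowered Gpr183 in KO by edgeR's quasi-likelihood test, at -1.84 ± 0.33 on the log2 scale (SE; adjusted p = 0.000117). In WT the log2 fold change was 0.65 ± 0.30 and did not pass the test (adjusted p = 0.0824). It did pass without WT 62 with TGFB1 (0.86, adjusted p = 0.00921) without KO 74 with TGFB1 (0.66, adjusted p = 0.0488) and in females alone (0.968, adjusted p = 0.0122). The difference between the responses of KO and WT was -2.49 ± 0.44 on the log2 scale (adjusted p = 0.0114), and it ranged from -2.78 to -2.25 when single libraries were left out, with the call kept each time. Within numbers above 70 alone it was -2.924 (adjusted p = 0.278) and within numbers up to 70 alone -1.882 (adjusted p = 0.225). Within libraries of 1 number, Gpr183 was lower with TGFB1 in 5 of 5 KO numbers and higher in 4 of 5 WT numbers.

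Compared directly with TGFB1, Gpr183 averaged 3.7 ± 1.83 CPM in KO and 15.5 ± 6.45 in WT (SD, n = 5 each), which is -2.08 ± 0.32 on the log2 scale (SE; adjusted p = 0.000119). Only the KO library 73 and the WT library 62 overlapped. With IL12 the KO libraries held 14.6, 16.9, 12.9, 14.8 and 25.7 CPM and the WT libraries 11.9, 12, 16.7, 16 and 24 CPM, and the genotypes did not differ by the test (log2 fold change 0.07, 95% interval -0.51 to 0.66, adjusted p = 0.906). Without cytokine the log2 fold change was 0.41 (95% interval -0.20 to 1.03, adjusted p = 0.47). IL12 against no cytokine gave 0.37 ± 0.29 in KO (adjusted p = 0.443) and 0.70 ± 0.30 in WT (adjusted p = 0.0959), and the WT value passed without WT 62 with TGFB1 (adjusted p = 0.0464), with the 2 groups alone (0.0263) and in females alone (0.0352). In the order of the 6 group means, KO with TGFB1 came last and was the only group whose range did not overlap that of its neighbour, WT without cytokine. Gpr183 (ENSMUSG00000051212; GRCm38 chromosome 14, 121952551 to 121965195, minus strand) lies inside Ubac2 on the opposite strand, which had 46656 counts over all libraries against 3830 of Gpr183. The labels name a directional kit, but the strand setting of the counting is not given in the sources used here, so a share of Ubac2 reads among these counts was not tested.

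**Figure D2:**
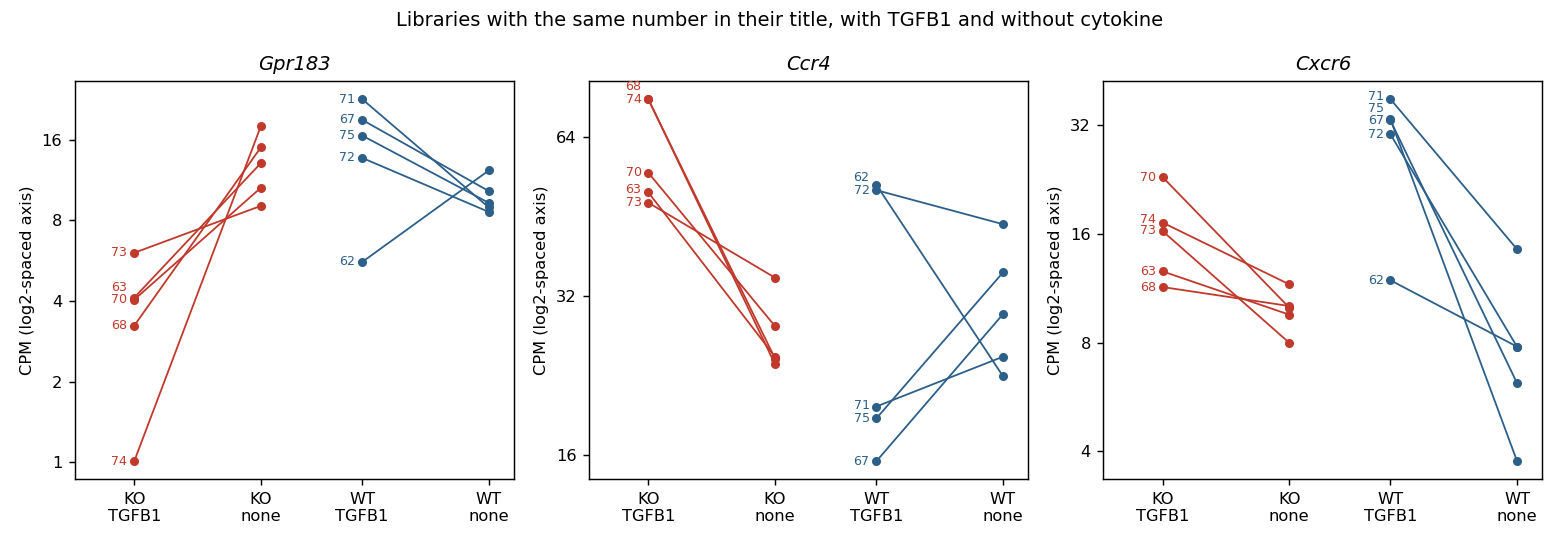
Gpr183, Ccr4 and Cxcr6 in libraries with the same number in their title, with TGFB1 and without cytokine; lines join the libraries of 1 number, the numbers stand beside the TGFB1 values and the vertical axis is log2-spaced CPM. Gpr183 was lower with TGFB1 in 5 of 5 KO numbers and higher in 4 of 5 WT numbers, while Ccr4 was higher in 5 of 5 KO numbers and 2 of 5 WT numbers.

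The promoter windows of Gpr183, Ccr4 and Ccr9 are shown. The first had the genotype-dependent response, the second was the one receptor higher in KO with TGFB1, and the third rose with TGFB1 in WT. Cxcr3, Cxcr6 and Ccr8 rose there too, and their windows, which are not shown, held no match to the motifs below. All windows run from 250 bases before to 50 bases after the RefSeq start on the gene's strand, in GRCm38.p6, and 7 of the 8 receptors had such an entry. Capitals mark a match to a motif, searched on both strands: TTCNNNGAA (STAT), TCACACC (T-box), TGANTCA (AP-1) and CAGACAG (SMAD).
Gpr183, chr14:121965144-121965443, minus strand: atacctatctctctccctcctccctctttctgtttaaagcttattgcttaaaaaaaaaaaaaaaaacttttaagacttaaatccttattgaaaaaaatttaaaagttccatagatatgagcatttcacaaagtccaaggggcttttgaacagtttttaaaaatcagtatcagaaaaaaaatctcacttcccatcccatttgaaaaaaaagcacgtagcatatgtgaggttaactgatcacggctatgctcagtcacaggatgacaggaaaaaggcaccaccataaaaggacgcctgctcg
Ccr4, chr9:114496495-114496794, minus strand: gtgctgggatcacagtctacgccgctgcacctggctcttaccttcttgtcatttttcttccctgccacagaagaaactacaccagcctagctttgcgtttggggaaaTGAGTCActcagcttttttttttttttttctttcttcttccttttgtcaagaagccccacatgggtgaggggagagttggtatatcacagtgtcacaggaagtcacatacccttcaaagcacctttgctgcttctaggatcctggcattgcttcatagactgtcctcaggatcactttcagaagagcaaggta
Ccr9, chr9:123766961-123767260, plus strand: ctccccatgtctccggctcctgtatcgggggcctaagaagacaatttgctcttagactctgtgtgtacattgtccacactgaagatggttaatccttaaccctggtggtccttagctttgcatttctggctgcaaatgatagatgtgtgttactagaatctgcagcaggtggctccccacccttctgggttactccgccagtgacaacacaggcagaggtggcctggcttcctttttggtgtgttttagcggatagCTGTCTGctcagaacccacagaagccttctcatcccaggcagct
The window of Ccr4 held TGAGTCA, a match to the AP-1 motif, with its first base 143 bases before the start (position -143). The window of Ccr9 held CTGTCTG, the SMAD motif read on the other strand, from position 7 after the start. No match was found in the windows of Gpr183, Ccr8, Cxcr3, Cxcr4 and Cxcr6. Over all 32851 promoters of the same table, 8.3% held the STAT motif, 3.98% the T-box motif, 7.81% the AP-1 motif and 7.73% the SMAD motif. A match is a match of letters and no evidence of binding.

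Ccr4, the receptor for Ccl17 and Ccl22 (ENSMUSG00000047898; chromosome 9, 114490316 to 114504916), was the one receptor called higher in KO than in WT with TGFB1. The KO libraries with TGFB1 held 50.3, 75.5, 54.8, 48.1 and 75.4 CPM and the WT libraries 52, 15.6, 19.8, 50.8 and 18.8 CPM. Without cytokine the KO libraries held 24.6, 23.8, 28.1, 34.7 and 24.4 CPM and the WT libraries 22.6, 29.6, 24.6, 43.8 and 35.5 CPM. The 5 KO libraries with TGFB1 were all above the 5 KO libraries without cytokine, and the WT libraries with TGFB1 fell into 2 high ones, 62 and 72, and 3 low ones. Ccr4 rose with TGFB1 in KO, by 1.17 ± 0.28 (log2 fold change, SE; adjusted p = 0.00297). In WT the log2 fold change was 0.01 ± 0.28 (adjusted p = 0.985). With TGFB1, Ccr4 was higher in KO, at 60.8 ± 13.6 CPM, than in WT, at 31.4 ± 18.3 CPM (SD, n = 5 each; log2 fold change 0.96 ± 0.28 SE, adjusted p = 0.00955), a call that was kept without each single library but lost when the 2 groups were fitted alone (adjusted p = 0.0588). The difference between the responses, 1.16 ± 0.40, missed the threshold (adjusted p = 0.0892), and passed it without WT 62 with TGFB1 (1.41, adjusted p = 0.0122) or WT 72 with TGFB1 (1.40, adjusted p = 0.0361) and in females alone (1.521, adjusted p = 0.0268).

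With IL12, Ccr4 held 36.9, 32.5, 37.8, 65.3 and 30.1 CPM in KO and 37, 40.8, 50.7, 76.2 and 57.7 CPM in WT. It was higher with IL12 than without cytokine in 5 of 5 numbers of each genotype. The log2 fold change of IL12 over no cytokine, 0.58 in KO (95% interval 0 to 1.16, adjusted p = 0.177) and 0.75 in WT (0.17 to 1.33, adjusted p = 0.0592), did not pass the test. In WT it passed in 8 of the 30 fits that left out 1 library (WT 62 or 67 or KO 73 with IL12, WT 62, 67, 72 or 75 with TGFB1, or WT 72 without cytokine), with a log2 fold change of 0.75 to 0.90 and an adjusted p of 0.0349 to 0.0493. With the 2 groups fitted alone, both IL12 values of Ccr4 passed (adjusted p = 0.0489 in KO and 0.0299 in WT), and without a filter on low counts the WT value did (0.0493).

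Ccr8, the receptor for Ccl1 and Ccl8 (ENSMUSG00000042262; chromosome 9, 120092114 to 120094906), was read almost wholly in the cultures with TGFB1. With TGFB1 the KO libraries held 0.931, 2.05, 4.26, 2.65 and 3.22 CPM and the WT libraries 1.12, 6.61, 3.53, 5.12 and 8.36 CPM. Summed over the 5 libraries this was 130 counts in KO and 247 in WT with TGFB1, 2 in KO and 13 in WT with IL12, and 0 in KO and 9 in WT without cytokine. Every library with TGFB1 thus exceeded every library of the other 4 groups. Ccr8 was higher with TGFB1 than without cytokine in KO (adjusted p = 3.43e-06), by 43.6-fold with the group without cytokine set at the floor of 3 counts. In WT it rose by 4.52 ± 0.59 on the log2 scale (SE; adjusted p = 5.17e-06), and the ratio of summed counts was 24.8 (exact 95% interval 12.8 to 54.9, counting error only). Ccr8 passed the filter only through libraries with TGFB1, so the filter favoured these rises.

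Between the genotypes, Ccr8 with TGFB1 averaged 2.62 ± 1.25 CPM in KO and 4.95 ± 2.79 in WT (SD, n = 5 each), and the log2 fold change of -0.89 ± 0.40 (SE) missed the threshold (adjusted p = 0.0852). Without WT 62 with TGFB1, it passed (-1.14, adjusted p = 0.0119), as it did in females alone (-0.955, adjusted p = 0.0342). Without cytokine, KO held 0 counts and WT 9, of which WT 72 held 4 and WT 75 held 3. Set at the floor of 3 counts, KO was 3.22-fold lower, without an allowance for counting error. With IL12 the ratio of 2 counts in KO to 13 in WT, per total counts, was 0.125 (exact 95% interval 0.0137 to 0.551, counting error only). Neither difference passed the test across libraries (adjusted p = 0.175 without cytokine and 0.15 with IL12).

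Ccr9, the receptor for the intestinal and thymic chemokine Ccl25 (ENSMUSG00000029530; chromosome 9, 123678439 to 123784330), was the least abundant of the 8. With TGFB1 it held 0.532, 0.108, 0.416, 1.14 and 0 CPM in the KO libraries and 0.112, 4.25, 5.65, 0.569 and 4.8 CPM in the WT libraries. The WT libraries 67, 71 and 75 stood above all KO libraries, whereas WT 62 and 72 lay among them. Summed counts were 21 in KO and 157 in WT with TGFB1, and 5 in KO and 22 in WT without cytokine. TGFB1 raised Ccr9 in WT, at 2.62 ± 0.71 on the log2 scale (SE; adjusted p = 0.00515). The ratio of summed counts was 6.45 (exact 95% interval 4.11 to 10.6, counting error only, without the spread between libraries). The Ccr9 call in WT was lost with a term for title numbers above 70 (2.022, adjusted p = 0.183), where the value is the response of numbers up to 70. Ccr9 passed the filter mainly through libraries with TGFB1, so the filter favoured its rise with TGFB1. Within libraries of 1 number, Ccr9 was higher with TGFB1 in 4 of 5 WT numbers and lower in WT 62 (-1.36 on the log2 scale). In KO the ratio was 4.23 (1.55 to 14.4, counting error only) and the test across libraries did not pass (log2 fold change 1.95, adjusted p = 0.256). KO was lower than WT with TGFB1, at -2.79 ± 0.72 on the log2 scale (SE; adjusted p = 0.00424), and this held without each single library (adjusted p up to 0.0204). The annotated span of Ccr9 holds several other genes, among them Lztfl1 on the opposite strand with 3102 counts against 220 of Ccr9, and their part in these low counts was not tested.

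Cxcr5, the receptor for the B cell follicle chemokine Cxcl13 (ENSMUSG00000047880; chromosome 9, 44511787 to 44561877), was lower in KO in all 3 conditions. With TGFB1 it held 1.06, 0.324, 1.04, 1.52 and 0.737 CPM in KO and 1.68, 2.6, 1.94, 2.28 and 3.17 CPM in WT. With IL12 it held 1.97, 1.59, 1.38, 1.11 and 1.32 CPM in KO and 2.19, 2.23, 3.28, 2.95 and 2.18 CPM in WT. Without cytokine it held 1.88, 2.19, 1.85, 1.62 and 0.999 CPM in KO and 3.89, 2.36, 3.06, 2.99 and 4.09 CPM in WT. In each condition the highest KO library lay below the lowest WT library. The log2 fold change, KO over WT, was -1.30 ± 0.27 with TGFB1 (SE; adjusted p = 0.00103), -0.81 ± 0.25 with IL12 (adjusted p = 0.0471) and -0.94 ± 0.25 without cytokine (adjusted p = 0.0412).

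The Cxcr5 call with TGFB1 was kept without each single library, from -1.57 to -1.09 on the log2 scale. The other 2 calls lay close to the threshold. Without cytokine the Cxcr5 call was lost without KO 63, 68, 70 or 74 or WT 62, 71, 72 or 75 of that condition (log2 fold change from -1.05 to -0.79, adjusted p up to 0.164). With IL12 it was lost in 20 of 30 such fits, namely without KO 68, 70, 73 or 74 or WT 71, 72 or 75 with IL12 and without 13 libraries of the other conditions (-0.862 to -0.705 in the 20 fits, adjusted p up to 0.129). Without a filter on low counts both were lost (adjusted p = 0.118 with IL12 and 0.0702 without cytokine). The IL12 call was also lost with the 2 groups alone (0.0911) or a term for numbers above 70 (0.0674), and the call without cytokine in females alone (0.0825). TGFB1 lowered Cxcr5 in KO by the test (log2 fold change -0.85 ± 0.28 SE, adjusted p = 0.0284), a call that was lost without KO 68 or 74 with TGFB1 or KO 63, 68 or 70 without cytokine (-0.825 to -0.639, adjusted p up to 0.0837), and also when the 2 groups were fitted alone (adjusted p = 0.074), without a filter on low counts (-0.856, adjusted p = 0.0686) and in females alone (-0.85, adjusted p = 0.0753). Within numbers above 70 alone the KO value was -0.207 (adjusted p = 0.874), and within numbers up to 70 alone the call was kept. In WT the value over all libraries was -0.49 ± 0.24 (adjusted p = 0.108), and the difference between the responses was not called (-0.36 ± 0.37, adjusted p = 0.579). Cxcr5 had 596 counts over all libraries, and its end overlaps that of Bcl9l, with 7803 counts on the opposite strand. B cells also carry Cxcr5: the 8 B cell markers summed to 8.52 to 13.8 CPM in KO and 11.9 to 18.9 CPM in WT with TGFB1, of which Cd79b made up nearly all, while Pax5 and Cd22 had 0 counts in these 10 libraries. The part of these markers in the Cxcr5 result was not tested.

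**Figure D3:**
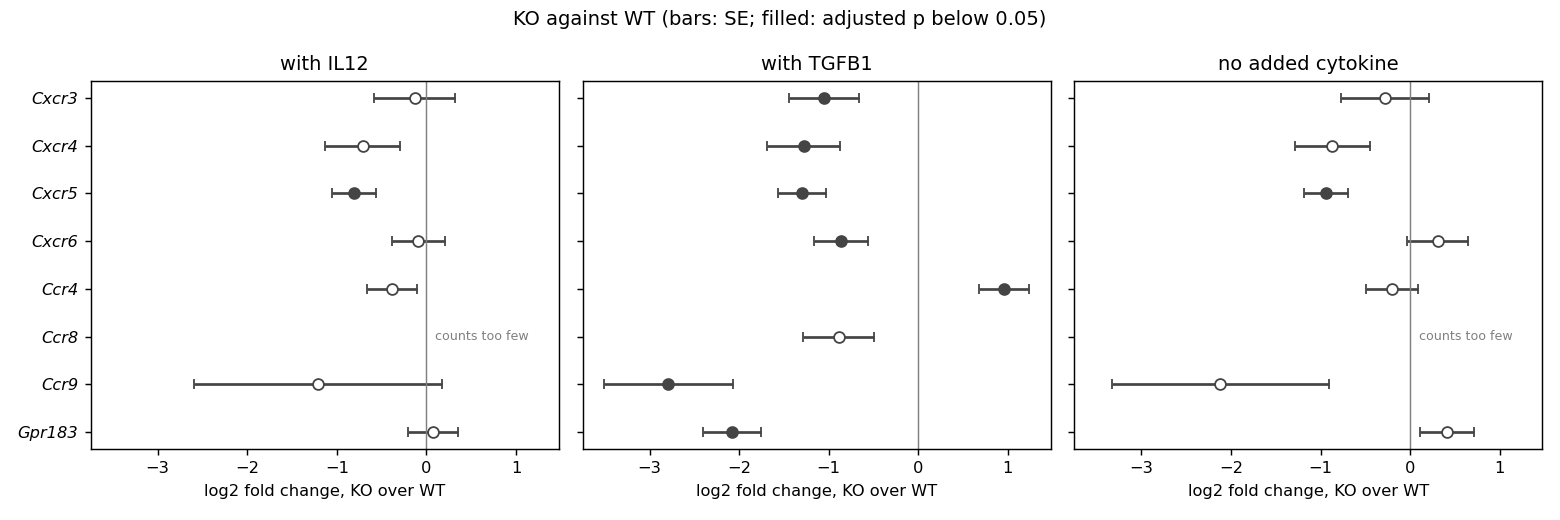
Log2 fold change of each receptor, KO over WT, with IL12, with TGFB1 and without cytokine (points; bars SE; filled points have an adjusted p below 0.05 by edgeR's quasi-likelihood test). With TGFB1, 7 of the 8 points are filled and Ccr4 is the one to the right of 0; Cxcr5 is filled in all 3 panels, and Ccr8 is left out where a group held 3 counts or fewer.

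Cxcr3, the receptor for the interferon-induced chemokines Cxcl9 and Cxcl10 (ENSMUSG00000050232; chromosome X, 101731535 to 101734269), rose with TGFB1 in both genotypes. With TGFB1 it held 9.04, 3.45, 9.98, 13.6 and 4.6 CPM in KO and 4.14, 12.5, 27.5, 18 and 21.5 CPM in WT. Without cytokine it held 2.5, 2.09, 2.77, 2.48 and 1.6 CPM in KO and 2.34, 2.47, 5.89, 1.91 and 1.25 CPM in WT. Each of the 5 KO libraries with TGFB1 lay above all KO libraries without cytokine, and in WT the ranges met only between WT 62 with TGFB1 and WT 71 without cytokine. The log2 fold change of TGFB1 over no cytokine was 1.83 ± 0.45 in KO (SE; adjusted p = 0.00338) and 2.60 ± 0.43 in WT (adjusted p = 5.64e-05). With IL12 it was 0.46 in KO (95% interval -0.51 to 1.44) and 0.31 in WT (-0.66 to 1.29), neither of them called.

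With TGFB1, Cxcr3 was lower in KO, at 8.14 ± 4.15 CPM, than in WT, at 16.7 ± 8.89 CPM (SD, n = 5 each; log2 fold change -1.05 ± 0.39 SE, adjusted p = 0.036). The Cxcr3 call was lost without KO 68 (-0.85, adjusted p = 0.11), KO 74 (-0.90, 0.103), WT 71 (-0.79, 0.142), WT 72 (-1.03, 0.0526) or WT 75 (-0.95, 0.0865) with TGFB1, and when the 2 groups were fitted alone (-1.05, 0.101). With a term for title numbers above 70 it was lost as well (-0.765, adjusted p = 0.127). Within numbers up to 70 alone the value was -0.151 (adjusted p = 0.84), against -1.293 (adjusted p = 0.123) within numbers above 70.

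Cxcr6, the receptor for the membrane-bound chemokine Cxcl16 (ENSMUSG00000048521; chromosome 9, 123806475 to 123811760), was higher with IL12 than without cytokine in both genotypes, and with TGFB1 by the test in WT. With IL12 it held 21.3, 21.7, 17.1, 17.2 and 35.6 CPM in KO and 16.3, 14.5, 25.6, 19.1 and 44.9 CPM in WT. With TGFB1 it held 12.6, 11.4, 23, 16.3 and 17.2 CPM in KO and 11.9, 33, 37.8, 30.2 and 33.2 CPM in WT. Without cytokine it held 9.56, 10.1, 10, 7.99 and 11.6 CPM in KO and 7.79, 6.17, 14.5, 7.78 and 3.75 CPM in WT. In every one of the 10 numbers, Cxcr6 was higher with IL12 and with TGFB1 than without cytokine. It was the one receptor called with IL12, with a log2 fold change of 1.19 ± 0.31 in KO (SE; adjusted p = 0.00961) and 1.60 ± 0.32 in WT (adjusted p = 0.000893). The KO call was lost without KO 74 with IL12 (0.97, adjusted p = 0.0528). With a term in the fit for title numbers above 70 in each condition, the IL12 value is the response of numbers up to 70. In that fit the IL12 calls of Cxcr6 were lost in KO (0.971, adjusted p = 0.0827) and in WT (1.224, adjusted p = 0.156). A fit of the libraries up to 70 alone, which asks the same, lost them too (1.018 in KO, adjusted p = 0.0786, and 1.138 in WT, adjusted p = 0.251). With TGFB1 it rose by 1.88 ± 0.32 in WT (adjusted p = 7.57e-05), while the value of 0.71 ± 0.32 in KO missed the threshold (adjusted p = 0.104) but passed it when the 2 groups were fitted alone (0.718, adjusted p = 0.00918). The difference between the 2 responses to TGFB1 was -1.16 ± 0.45 (adjusted p = 0.126), and it passed without WT 62 with TGFB1 (-1.36, adjusted p = 0.022).

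Between the genotypes, Cxcr6 with TGFB1 was lower in KO, at 16.1 ± 4.53 CPM, than in WT, at 29.2 ± 10.1 CPM (SD, n = 5 each; log2 fold change -0.86 ± 0.30 SE, adjusted p = 0.0285). This Cxcr6 call was lost without KO 63 (-0.79, adjusted p = 0.0595), KO 68 (-0.75, 0.0816), WT 67 (-0.82, 0.0602), WT 71 (-0.74, 0.0847) or WT 75 (-0.82, 0.0621) with TGFB1. Cxcr6 lies within Fyco1 on the opposite strand, which had 453 counts against 5584 of Cxcr6.

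Cxcr4, the receptor for Cxcl12, known for holding cells in the bone marrow (ENSMUSG00000045382; chromosome 1, 128588199 to 128592293), was lower in KO with TGFB1. Its levels there were 22.3, 5.93, 24.3, 41.6 and 6.26 CPM in KO and 16.7, 53.1, 76.2, 48.7 and 49.3 CPM in WT. KO 68 and 74 were the lowest, and apart from WT 62 the WT libraries lay above all KO libraries. The log2 fold change was -1.28 ± 0.41 (SE; adjusted p = 0.0156). The Cxcr4 call was lost without KO 68 (-1.05, adjusted p = 0.0532), KO 74 (-1.06, 0.0539) or WT 71 (-1.06, 0.0616) with TGFB1, and when the 2 groups were fitted alone (-1.29, 0.0792). Without cytokine it averaged 13.4 ± 3.17 CPM in KO and 24.7 ± 12.8 in WT (SD, n = 5 each), with a log2 fold change of -0.87 (95% interval -1.75 to 0, adjusted p = 0.262). With IL12 it averaged 12.1 ± 5.13 CPM in KO and 19.7 ± 7.06 in WT (log2 fold change -0.71, adjusted p = 0.309). TGFB1 over no cytokine gave 0.58 ± 0.42 in KO (adjusted p = 0.338) and 0.99 ± 0.40 in WT (adjusted p = 0.0528). The WT value passed without WT 62 or KO 68, 73 or 74 with TGFB1, WT 71 or KO 73 or 74 with IL12, or WT 71 without cytokine (0.99 to 1.36, adjusted p = 0.0118 to 0.0481). It also passed without a filter (adjusted p = 0.0414), with a minimum count of 30 (0.0492) and in females alone (0.0446).

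**Figure D4:**
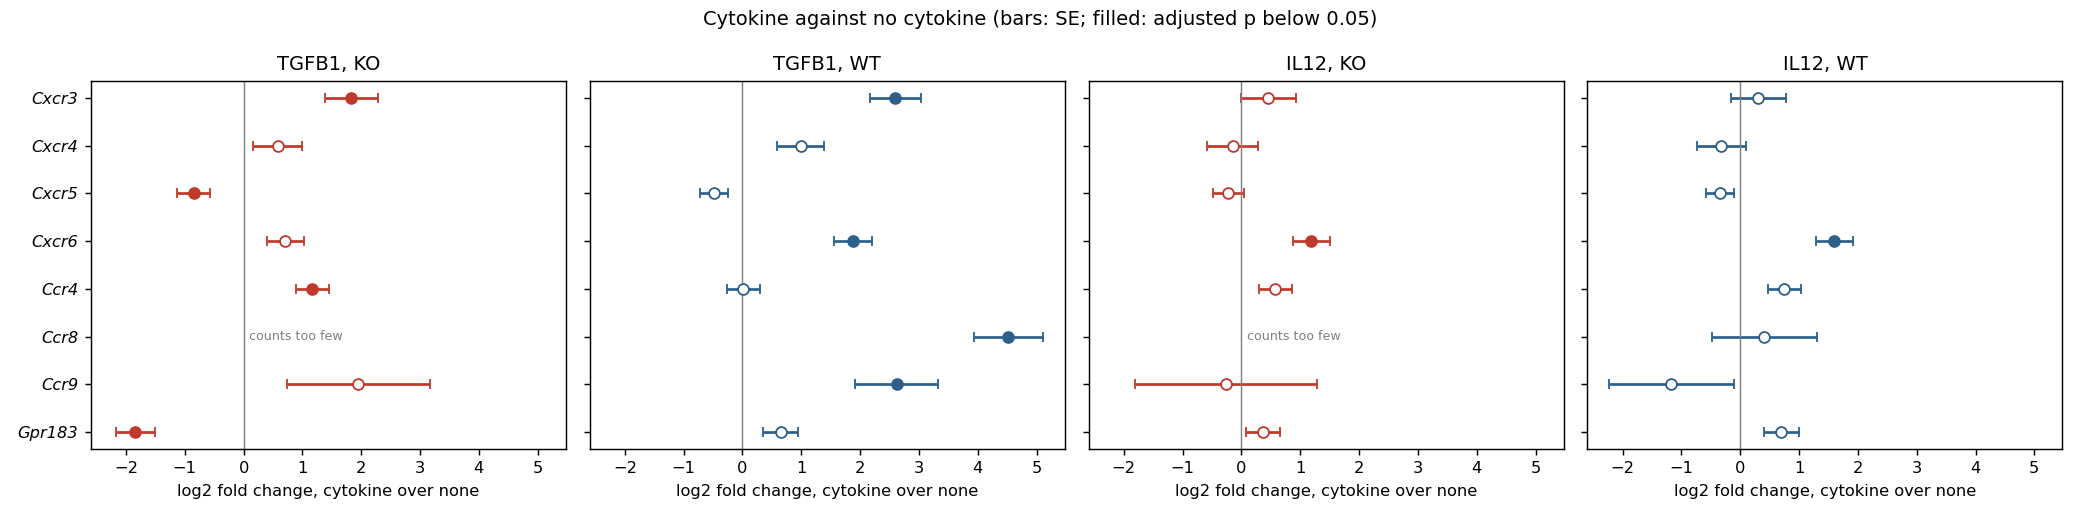
Log2 fold change of each receptor with a cytokine over no cytokine in KO and WT (points; bars SE; filled points have an adjusted p below 0.05 by edgeR's quasi-likelihood test). Cxcr3 and Ccr8 passed with TGFB1 in both genotypes, and the fitted point of Ccr8 is left out in KO, where the cultures without cytokine held 0 counts; Cxcr6 alone passed with IL12.

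Counted over the 8 receptors, KO differed from WT most often with TGFB1. There 1 was higher in KO (Ccr4) and 6 were lower, with Ccr8 not called, where 35.6% of all tested genes were called (2144 genes higher, 2022 lower). Among the lower ones, Ccr9 reached the filter level with TGFB1 in 3 WT libraries and 1 KO library, so it was tested mainly through WT with TGFB1. With IL12 and without cytokine 1 receptor was lower (Cxcr5 each time), where 6.78% of all genes were called with IL12 (324 genes higher, 470 lower) and 2.10% without cytokine (126 genes higher, 120 lower). The median log2 fold change of the 8 was -1.16 with TGFB1, -0.54 with IL12 and -0.57 without cytokine, the last also with Ccr8 at its floor value, whereas the median over all genes was -0.006, 0 and -0.002. The ranges of KO and WT did not overlap for 1 receptor, Cxcr5, in each condition, where 7.64% of all genes with TGFB1, 5.06% with IL12 and 6.55% without cytokine had ranges that did not overlap. Within the libraries of numbers above 70 alone and of numbers up to 70 alone (2 or 3 a group), Gpr183 was the 1 receptor called with TGFB1 (-2.32, adjusted p = 0.0245, and -1.69, adjusted p = 0.0267). Over all genes, these fits called 1298 genes above 70 and 572 genes up to 70. In the libraries with TGFB1 the CD8 markers Cd8a and Cd8b1 summed to 953 to 1309 CPM in KO and 1330 to 1989 CPM in WT, and the 7 T cell markers to 2109 to 2504 CPM in KO and 2295 to 3314 CPM in WT. The 5 stromal and endothelial markers summed to 7.64 to 35.6 CPM in KO and 26.3 to 81.5 CPM in WT. Nearly all of this was Pecam1, with Pdgfra at 0. The 3 CD4 T cell markers summed to 17.7 to 26.5 CPM in KO and 19 to 28.1 CPM in WT, and Cd4 itself stayed at or below 2.37 CPM in every library. The 9 myeloid and dendritic cell markers summed to 2.95 to 8.21 CPM in KO and 3.14 to 7.11 CPM in WT, with Siglech and Cd209a at 0, and the 3 plasma cell markers to 2.29 to 5.52 CPM in KO and 0.354 to 3.47 CPM in WT. The 5 erythroid and platelet markers summed to at most 0.312 CPM in KO and 0.0949 in WT, and the 3 NK cell markers were at 0 in both. The part of these markers in the receptor differences was not tested.

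With TGFB1 against no cytokine, 3 receptors were higher in KO (Cxcr3, Ccr4 and Ccr8) and 2 lower (Cxcr5 and Gpr183), where 24.5% of all genes were called (1586 genes higher, 1289 lower). In WT, 4 were higher (Cxcr3, Cxcr6, Ccr8 and Ccr9) and none lower, where 37.9% of all genes were called (2255 genes higher, 2184 lower). Ccr8 passed the filter only, and Ccr9 mainly, through libraries with TGFB1. The filter thus favoured their rise with TGFB1 in these counts and in the medians and ranges that follow. With IL12, 1 receptor (Cxcr6) was higher in each genotype, where 14.2% of all genes were called in KO (995 genes higher, 673 lower) and 18.9% in WT (1236 genes higher, 973 lower). The median log2 fold change of the 8 was 0.94 in KO and 1.43 in WT with TGFB1, and 0.41 in KO and 0.36 in WT with IL12, beside medians over all genes of 0.007, 0.016, 0 and 0.008. The ranges with TGFB1 and without cytokine did not overlap for 4 receptors in KO (Cxcr3, Ccr4, Ccr8 and Gpr183), where 20.8% of all genes had such ranges, and for 1 in WT (Ccr8), where 14.8% had. With IL12 this held for 1 receptor, Cxcr6, in KO and in WT, where 17.3% of all genes in KO and 12.5% in WT had ranges that did not overlap. The 3 markers of innate lymphoid and gamma delta T cells, which can carry Cxcr6, summed to 40.1 to 103 CPM in KO and 21 to 47.4 CPM in WT with IL12, against 6.49 to 14.7 CPM in KO and 4.52 to 13.5 CPM in WT without cytokine. Il1rl1 averaged 54.4 CPM in KO and 29.9 in WT with IL12 and 2.99 CPM in KO and 1.54 in WT without cytokine, while Trdc averaged 5.64 CPM in KO and 4.8 in WT with IL12 and 5.82 CPM in KO and 5.41 in WT without cytokine, and the part of these markers in the Cxcr6 result was not tested. The comparisons of the 2 cytokines within a genotype share the 5 libraries without cytokine. For the difference between the TGFB1 responses, 1 receptor (Gpr183) was called, where 3.30% of all genes were (189 genes higher, 198 lower). For the IL12 responses edgeR called none of the 8 and 0.00% of all genes, with 0 of the 8 and 513 of the 11718 genes at an unadjusted p below 0.05, and DESeq2 called 0 genes too.

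For each receptor, the genes with the most similar pattern were those with the smallest root mean square distance between the 6 group means of log2 CPM, each gene centred on its own mean, among 9434 genes. The closest to Gpr183 were Arc and Plxnc1, a semaphorin receptor, both at 0.3, and those closest to Ccr4 were Zfp944 and Ulbp1, both at 0.18. Cxcr3 was followed by Ikzf2, which encodes the transcription factor Helios (0.13), and Tsc22d1 (0.16). Ccr8 was followed by Itgae, the integrin subunit CD103 of tissue-resident T cells, at a distance of 0.63. Itgae averaged 51.2 CPM in KO and 189 in WT with TGFB1, 1.48 CPM in KO and 2.62 in WT with IL12, and 1.43 CPM in KO and 3.58 in WT without cytokine. The nearest to Cxcr4 were H2-DMa (0.12) and Txnip (0.14), those to Cxcr5 Gbp4 (0.1) and Glrx (0.19), those to Cxcr6 Lgals3 (0.23) and Nebl (0.26), and those to Ccr9 Nsg2 (0.25) and Slc6a19 (0.28). The second of Ccr8 was Tbc1d4 (0.71).

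Of 23 other chemoattractant receptors, 9 passed the filter. With TGFB1 against no cytokine, 3 of the 9 were higher and 4 lower in KO, and 3 were higher and 1 lower in WT, beside 24.5% of all tested genes called in KO and 37.9% in WT. Ccr6, the receptor for Ccl20, averaged 10.8 CPM in KO and 18.6 in WT with TGFB1 and 1.2 CPM in KO and 0.7 in WT without cytokine (log2 fold change 3.18 ± 0.36 SE in KO, adjusted p = 1.19e-07; 4.71 ± 0.39 in WT, adjusted p = 6.46e-10). Gpr15, a receptor known for homing to the large intestine, rose by 4.31 ± 0.66 in KO and 3.68 ± 0.59 in WT. Between KO and WT with TGFB1, 2 of the 9 were lower and none higher, beside 35.6% of all genes called. These were Ccr6 (log2 fold change -0.78 ± 0.28 SE, adjusted p = 0.0324) and Ccr7, the lymph node homing receptor (-0.46 ± 0.17, adjusted p = 0.0375).

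Of 10 genes of recirculation and egress, 9 were tested, and 6 were lower in KO than in WT with TGFB1 and none higher, beside 35.6% of all genes called. S1pr1, the receptor that leads lymphocytes out of lymph nodes, averaged 27.3 CPM in KO and 116 in WT with TGFB1, which is -2.08 ± 0.62 on the log2 scale (SE; adjusted p = 0.0107). In the same comparison Klf3, a transcription factor, was lower in KO, at 17.9 CPM against 42.1 in WT (log2 fold change -1.24 ± 0.30 SE, adjusted p = 0.00285). Klf2, a transcription factor that drives S1pr1, fell with IL12 in both genotypes, with log2 fold changes against no cytokine of -1.45 ± 0.37 in KO and -1.62 ± 0.37 in WT. The mean of S1pr1 did not fall with it: 14 CPM with IL12 and 7.35 without cytokine in KO, and 29.8 and 20.3 in WT. Without cytokine, none of the 9 was called between KO and WT, where 2.10% of all genes were called. The median log2 fold change of the 9, KO over WT, was -0.32 without cytokine and -0.8 with TGFB1.

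Of 31 transducers and brakes of G-protein-coupled receptors, 29 were tested, and with TGFB1 4 were higher and 12 lower in KO than in WT, beside 35.6% of all genes called (2144 higher, 2022 lower). Arrb1, an arrestin that uncouples and internalises receptors, averaged 17.2 CPM in KO and 40.8 in WT (log2 fold change -1.25 ± 0.26 SE, adjusted p = 0.000937). The log2 fold change was -1.09 ± 0.18 for Rgs14 (adjusted p = 0.000172) and 0.96 ± 0.21 for Rgs1, which dampens Gi signalling (adjusted p = 0.00118). Without cytokine 3 were higher and 2 lower, beside 2.10% of all genes called, and Rgs16, another brake, was higher in KO at 67.2 CPM than in WT at 25.6 CPM (1.38 ± 0.27, adjusted p = 0.0124).

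Of 27 transcription factors known to act on such receptors, 26 were tested, and with TGFB1 1 was higher and 10 were lower in KO than in WT, a share near the 35.6% of all genes called. Bcl6, the regulator of follicular T cells, averaged 1.52 CPM in KO and 8.18 in WT (log2 fold change -2.42 ± 0.39 SE, adjusted p = 0.000154), Id3 15.6 CPM in KO and 49.3 in WT (-1.66 ± 0.26, adjusted p = 0.000119) and Gata3 6.53 CPM in KO and 14.1 in WT (-1.11 ± 0.24, adjusted p = 0.00133). Maf was at 26.7 CPM in KO and 26.3 in WT with TGFB1, against 0.132 CPM in KO and 0.109 in WT without cytokine. With IL12, Tbx21, which encodes T-bet and drives Cxcr3 in effector T cells, rose by 1.62 ± 0.19 in KO and 1.83 ± 0.19 in WT, and Prdm1, which encodes Blimp-1, by 3.44 ± 0.37 in KO and 3.33 ± 0.35 in WT. Of 14 ligand genes and enzymes of the Gpr183 ligand, 5 were tested, and Cxcl10, a ligand of Cxcr3, was called higher with IL12 in both genotypes, with 3.29 CPM against 0.613 CPM without cytokine in KO (log2 fold change 2.48 ± 0.61 SE, adjusted p = 0.00591) and 5.31 CPM against 0.666 CPM in WT (3.00 ± 0.59, adjusted p = 0.000681).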

How the data were processed

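RNA-seq libraries (poly(A) selection and a directional kit, per the labels) came from 30 cultures. The deposited values are raw read counts per Ensembl gene, whole numbers in 1 matrix. FastQC, Trim Galore, STAR and DESeq2 1.24.0 with GRCm38 are named in the submitters' processing notes. Which program counted the reads, with which strand option, is not given in the sources used here. Symbols, coordinates and exon lengths were taken from GENCODE vM21 of GRCm38, where 55480 of 55573 genes matched. Genes were kept by filterByExpr (minimum count 10), which left 11718 genes with 99.88% of the counts. edgeR 4.0.16 in R 4.3.3 fitted 1 quasi-likelihood model with a mean per group and TMM factors to all 30 libraries. Contrasts were tested two-sided, Benjamini-Hochberg adjusted over all tested genes, and called at an adjusted p below 0.05. The biological coefficient of variation was 14.3%. The labels do not say that the 5 libraries of a group came from separate animals, so p-values measure the spread between these libraries. SD and SE are over the 5 libraries of a group and of the fitted fold change, and 3 counts over a group (0.0509 to 0.067 CPM) served as the floor. No pair of libraries in a group agreed within sampling noise.

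All 8 receptors are described whatever their values. Of each of 5 gene lists, up to 3 called genes a comparison could be named, if the higher group averaged 4 CPM or more, ranked by fold change. The receptors, lists and tests were chosen with earlier results of these data known. Alternatives were other size factors, no filter, a minimum count of 30, DESeq2 1.42.0, the compared groups alone, females alone, a split of the title numbers at 70, the number as a block (limma 3.58.1 between genotypes), leaving out each library and, added after the data were seen, leaving out both male libraries with TGFB1. The term for numbers above 70, shared by KO and WT, was fitted in each condition. With it, a cytokine against no cytokine is the response of numbers up to 70, while KO against WT is adjusted for the split. The fits were tested on simulated data. Results for some genes of the lists are not reported here.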

Additional observations from a re-analysis of the deposited data

Results flagged for a closer look

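Single libraries stood away from the other 4 of their group in 5 sets of values, by a gap to the nearest library that exceeded Dixon's 95% critical value for 5 samples. Of the 48 sets (8 receptors in 6 groups), those of Ccr8 and Ccr9 in KO with IL12 and in KO without cytokine were not examined. No library there exceeded 3 counts. Chance gives such a gap in about 1 of 20 groups. Cxcr3 was at 7.51 CPM in WT 71 with IL12 and at 5.89 CPM in WT 71 without cytokine, and Cxcr4 at 31.7 CPM in WT 71 with IL12, each the highest of its group. Cxcr6 was at 35.6 CPM in KO 74 with IL12, and Ccr4 at 65.3 CPM in KO 73 with IL12.

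The response to TGFB1 differed between KO and WT, by the interaction term of the edgeR fit, for Gpr183 (-2.49 on the log2 scale, KO minus WT, adjusted p = 0.0114). Values for 4 list genes for which it also differed follow. Rac2, a GTPase of cell movement, had -0.73 (adjusted p = 0.026), Grk6, a receptor kinase, -0.56 (adjusted p = 0.0443) and the G-protein subunit gene Gng2 0.72 (adjusted p = 0.0173). The transcription factor Id3 had -1.86 (adjusted p = 0.0126).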

How the results depend on the processing

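DESeq2 and its size factors in edgeR left each of 56 receptor results on its side of the threshold. Counts of receptors called moved as follows. Where a filter left a receptor untested this is said, and other causes were not tested. KO against WT without cytokine went to 0 from 1 without a filter, in females and in numbers above 70 or up to 70 alone (0 to 1 without single libraries). With a minimum count of 30 it had 0, as Cxcr5 did not pass that filter and was not tested. KO against WT with TGFB1 went to 3 from 7 with the compared groups alone, where Ccr9 did not pass the filter, and to 1 in numbers above 70 alone and 1 up to 70 alone (4 to 8 without single libraries: 4 without KO 68 or WT 71, 8 without WT 62), and had 6 with a term for numbers above 70. KO against WT with IL12 went to 0 from 1 without a filter, with the compared groups alone, with a term for numbers above 70 and within each side of 70 (0 to 1 without single libraries). With a minimum count of 30 it had 0, again with Cxcr5 untested. TGFB1 in KO went to 2 from 5 in numbers above 70 alone. It had 4 without a filter, in females, with a minimum count of 30 (Cxcr5 untested) and with the compared groups alone, where Ccr8 was untested (4 to 5 without single libraries). TGFB1 in WT had 3 instead of 4 with the term for 70, and 3 with the compared groups alone or up to 70 alone, where Ccr9 was untested. It had 5 without a filter, 6 in females and 6 without both male libraries with TGFB1 (4 to 6 without single libraries). IL12 in KO had 2 with the compared groups alone and 0 with the term for, above and up to 70 (0 to 1 without single libraries). IL12 in WT had 2 without a filter, 3 with the compared groups alone, 2 in females, 0 with the term for 70, 0 up to 70 and 2 without both male libraries with TGFB1 (1 to 3 without single libraries). The differing TGFB1 response had 2 in females, 0 above and 0 up to 70, and 3 without both male libraries with TGFB1 (1 to 3 without single libraries).

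Signs turned for small values that were not called. For Cxcr3, KO against WT, the log2 fold change was 0.02 without cytokine and 0.427 with IL12 in numbers up to 70, and 0.053 with IL12 under the replicate block; for Cxcr6 with IL12 it was 0.087 with the term for 70 and 0.384 up to 70. For Ccr4, TGFB1 in WT, it was -0.006 without a filter, -0.325 in females, -0.211 above 70, -0.071 under the replicate block and -0.244 without both male libraries, and the Cxcr5 response difference was 0.246 above 70. Without single libraries, Cxcr3 ran from -0.461 to 0.192 (KO against WT without cytokine), -0.289 to 0.415 (with IL12) and -0.224 to 0.778 (IL12 in WT), Cxcr6 from -0.323 to 0.259 and Gpr183 from -0.125 to 0.266 (KO against WT with IL12), Ccr4 from -0.244 to 0.183 (TGFB1 in WT) and Cxcr4 from -0.551 to 0.043 (IL12 in WT).

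Libraries that share a title number deviated together in part: the correlation of their deviations from the group means had a median of 0.222 over 30 pairs (-0.0339 to 0.43), 25 of 30 exceeded 0.1, and 26 of 30 libraries were highest with their own number. With the number as a replicate block, the receptors called were 2 for IL12 in WT (Ccr4 added) and 2 for the differing TGFB1 response (Ccr4 added), 5 for TGFB1 in WT (Cxcr4 added), and the other counts were as in the fit without it. Over all genes, calls ranged from 572 to 5386 for KO against WT with TGFB1 (4166 as reported), from 0 to 1099 without cytokine (246) and from 4 to 1530 with IL12 (794), from 549 to 3410 for TGFB1 in KO (2875) and 1437 to 5373 in WT (4439), from 633 to 2365 for IL12 in KO (1668) and 129 to 2801 in WT (2209), and from 0 to 2155 for the differing TGFB1 response (387). Outside TGFB1, Ccr8 and Ccr9 held 0 to 22 counts a group, so their ratios carry wide counting intervals.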
